A study of Mus musculus with 4 samples.

Results

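The genes described here are 9 regulators of transcription in meiotic and haploid male germ cells: Crem, Fhl5, Rfx2, Rfx4, Tbpl1, Taf7l, Sox30, Brdt and Tcfl5. They were found by symbol among the 55450 genes of the files, and all 9 were present once. Their unique molecular identifiers (UMIs, the count of captured transcripts) were followed across germ-cell stages and between diets. The data were 10x Chromium single-cell RNA libraries of dissociated whole mouse testis, 2 after a high-fat diet (HFD) and 2 after a normal diet (ND). The labels name no strain, age, duration of diet or genotype, nor whether the libraries are from different mice, so the p-values measure only the spread between libraries.

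Spermatids transcribe their genes with regulators that most other cells lack. Crem encodes a cyclic AMP response element modulator, whose activator form switches on many spermatid genes, and Fhl5 (also called ACT) encodes a coactivator that binds the CREM protein. UMIs were counted per gene, so the forms of Crem (39 annotated transcripts) were not told apart. Tbpl1 (TRF2, TLF) encodes a relative of the TATA-binding protein, and Taf7l a germ-cell relative of the TFIID subunit TAF7. Rfx2 and Rfx4 encode winged-helix factors of a family that binds X-box sites in genes of cilia and flagella, and Sox30 encodes an HMG-box factor of spermatids. Brdt encodes the testis member of the BET family of bromodomain proteins, and Tcfl5 a basic helix-loop-helix factor of spermatocytes.

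Brdt, Rfx2 and Tcfl5 had their highest levels in early or pachytene spermatocytes, and of the regulators Rfx2 was the most like each of the other two across germ-cell clusters, so their promoters are shown, as the 250 bases before the RefSeq transcription start (GRCm38.p6), 5′ to 3′ on the gene's strand. Capitals mark every match to AACNG on either strand, the core letters bound by MYB proteins. MYBL1 (A-MYB), a MYB protein, is a known regulator of spermatocyte genes.
Brdt, chr5:107330944-107331193, plus strand: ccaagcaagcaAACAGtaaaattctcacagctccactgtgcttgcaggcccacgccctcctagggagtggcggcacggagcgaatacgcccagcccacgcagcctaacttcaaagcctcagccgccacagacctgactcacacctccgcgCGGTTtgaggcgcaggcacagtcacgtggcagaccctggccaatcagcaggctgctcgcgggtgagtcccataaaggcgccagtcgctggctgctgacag
Rfx2, chr17:56831009-56831258, minus strand: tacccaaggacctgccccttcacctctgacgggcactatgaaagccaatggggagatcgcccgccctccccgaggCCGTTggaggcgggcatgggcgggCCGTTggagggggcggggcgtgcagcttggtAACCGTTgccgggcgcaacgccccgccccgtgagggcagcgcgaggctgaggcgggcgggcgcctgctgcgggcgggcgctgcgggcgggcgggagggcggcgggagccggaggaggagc
Tcfl5, chr2:180642692-180642941, minus strand: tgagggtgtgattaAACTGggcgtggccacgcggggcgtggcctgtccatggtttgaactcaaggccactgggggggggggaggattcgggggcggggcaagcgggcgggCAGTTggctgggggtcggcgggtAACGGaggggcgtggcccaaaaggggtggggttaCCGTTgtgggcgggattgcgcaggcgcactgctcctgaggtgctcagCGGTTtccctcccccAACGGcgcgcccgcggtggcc

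The Tcfl5 promoter held 6 matches to AACNG, the Rfx2 promoter 4 and the Brdt promoter 2, and those of Fhl5 (2 and 2), Rfx4 (1 and 3), Sox30 (2), Taf7l (2) and Tbpl1 (2) held matches as well. Among 32851 RefSeq promoters of this length, 74.2% held at least 1 match and the mean was 1.46. Promoters on chromosome 18, where Crem lies, are not reported here and are not among the 32851, which are meant by all promoters below. The full cyclic AMP response element TGACGTCA was in 1.55% of all promoters and in 0 of the 10 promoters matched to 8 of the regulators. Its half-site TGACG was in 17.8% of all promoters and, among those 10, in the Rfx2 promoter alone. The X-box half-site letters GTTGCC were in 10.4% of all promoters and, among the 10, again in the Rfx2 promoter alone, where they overlap a match to AACNG. These letter matches were searched on both strands and describe the windows only.

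The deposited matrices held 13561 to 15290 barcodes and 143748262 to 154221188 UMIs per library. Filtering and doublet calls left 54917 cells, 13122 to 14468 per library, with medians of 5509.5 to 5946 UMIs. Pairs of libraries shared 42 to 65 barcode sequences, at most 0.465% of the smaller library. Clusters were named by the likeness of their markers, so that each stage below stands for cells like that stage. The stages were spermatogonia (212 cells), early spermatocytes (3997), pachytene spermatocytes (3207), late spermatocytes (2284), round spermatids (12185) and elongating spermatids (8465). The round clusters (14, 15, 16 and 21) scored 1.28 to 1.82, had 0 own markers among their top 10 genes and were named through their depth. Cluster 5, most of the early spermatocytes, scored 1.10 for early and 0.61 for pachytene markers. The late cluster 4 scored 1.24 for late and 1.03 for pachytene markers. Another 38.3% of the cells, with a median of 2027 UMIs, were left unnamed and entered only the whole-testis sums. Of their 10 clusters, 6 scored under 1 for every marker list. The other 4 scored at least 1 but were shallow and had no own marker among their top 10 genes; the largest was cluster 11 (6175 cells), which scored 1.19 for late spermatocytes.

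Positions are from GENCODE M21 (GRCm38). Rfx4 and Tbpl1 share chromosome 10, and the others are each on a chromosome of their own. Taf7l is on chromosome X, from 134460118 to 134476490 on the minus strand. Crem is on chromosome 18 (3266048 to 3337748, minus strand), Fhl5 on chromosome 4 (25199908 to 25242876, minus strand) and Tbpl1 on chromosome 10 (22703879 to 22731938, minus strand). Rfx4 spans 84756062 to 84906538 on the plus strand of chromosome 10, and Rfx2 spans 56775897 to 56831013 on the minus strand of chromosome 17. Sox30 is on chromosome 11 (45980310 to 46017994, plus strand), Brdt on chromosome 5 (107331159 to 107387058, plus strand) and Tcfl5 on chromosome 2 (180621956 to 180642708, minus strand). Each is protein-coding. Annotated genes overlap 6 of the 9 loci on the opposite strand: Gm6225 at Crem, Gm11906 at Fhl5, Gm24226 at Rfx4, Slc2a12 at Tbpl1, Gm8152 at Brdt and Col9a3 at Tcfl5. The use of strand in counting is not given in the sources used here, so reads in the shared stretches cannot be told apart.

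Germ-cell transcripts were found in somatic-like cells and are taken here as free RNA, which was not tested on empty droplets. Macrophage-like cells, which should lack protamine, carried 4795 CPM of Prm1 (CPM: UMIs of a gene per 1e6 UMIs of its class). The level of each regulator in macrophage-like cells is given as 1 measure of background, and it depends on the class chosen. RNA made by those cells themselves was not told apart. Over 5 somatic classes (Leydig, Sertoli, macrophage, lymphocyte and fibroblast), Fhl5 ranged from 25.4 CPM in Leydig-like to 194 CPM in Sertoli-like cells, with 163 CPM in lymphocyte-like and 142 CPM in fibroblast-like cells. Lymphocyte-like cells held 85.0 CPM of Sox30, 271 CPM of Crem, 377 CPM of Tcfl5 and 22.8 CPM of Taf7l (3.21 to 46.2 CPM over libraries), so Taf7l there overlapped its level in round spermatids. Fibroblast-like cells held 162 CPM of Brdt, 39.2 CPM of Rfx4 and 718 CPM of Tbpl1, and Sertoli-like cells held 68.3 CPM of Rfx2. Macrophage-like cells had a median of 2484 UMIs, against 31958 in late spermatocytes and 11897 in round spermatids, so a given amount of free RNA makes up a larger part of their total. Shares of cells with a UMI were compared after cells with at least 2000 UMIs were thinned to that number, and shallower cells were left out. This left out 35 of 172 macrophage-like cells in HFD and 75 of 216 in ND, 98 of 3941 elongating spermatids in HFD and 373 of 4524 in ND, and 13 of 212 spermatogonia. Of early, pachytene and late spermatocytes and round spermatids, 187 of 3997, 10 of 3207, 51 of 2284 and 97 of 12185 cells were left out. The unthinned shares cover all cells of a class, including those. No comparison between stages was tested, because stages are clusters of the same cells.

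Crem was highest in round spermatids, in all 4 libraries. Its level there was 566 and 573 CPM in HFD and 594 and 589.7 CPM in ND. Late spermatocytes had 294 CPM as the mean of 4 libraries (range 289.6 to 299), pachytene spermatocytes 241 CPM and early spermatocytes 187 CPM. The level in round spermatids was thus 1.97 times that in late spermatocytes, and the ranges of neighbouring stages did not overlap anywhere in the order. Elongating spermatids had 146 CPM and spermatogonia 116 CPM. Both, and early spermatocytes, lay below the 225 CPM of macrophage-like cells (194 to 252 CPM), and pachytene spermatocytes lay within that range. Crem was detected in 67.2% of thinned round spermatids and 35.0% of thinned macrophage-like cells (98.2% and 42.8% unthinned). Per cell, a round spermatid held 8.60 Crem UMIs, a late spermatocyte 9.15 and a macrophage-like cell 0.74. The order of stages by CPM is thus an order of shares of UMIs. Late spermatocytes were deeper, with a median of 31958 UMIs against 11897 in round spermatids.

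Fhl5, the partner of CREM, appeared with the haploid stages. Its level was 454 and 461 CPM in HFD and 467 and 466 CPM in ND round spermatids. In elongating spermatids it was 591 and 605 CPM in HFD and 656 and 643 CPM in ND. The elongating cluster with the highest level, cluster 8, also scored 0.81 for round-spermatid markers, so the order of these 2 stages leans on its name. Per cell the order was the other way, with 6.84 Fhl5 UMIs in round and 4.51 in elongating spermatids. Late spermatocytes held 9.37 CPM, so the mean in round spermatids was 49.3 times higher. All spermatocyte stages, with 9.37 to 17.0 CPM, lay below the 57.5 CPM of macrophage-like cells. The share of thinned cells with a UMI was 50.6% in round spermatids, 44.1% in elongating spermatids, 2.07% in late spermatocytes and 9.36% in macrophage-like cells. Unthinned, the shares in the same order were 85.9%, 60.8%, 24.4% and 11.9%.

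**Figure D1:**
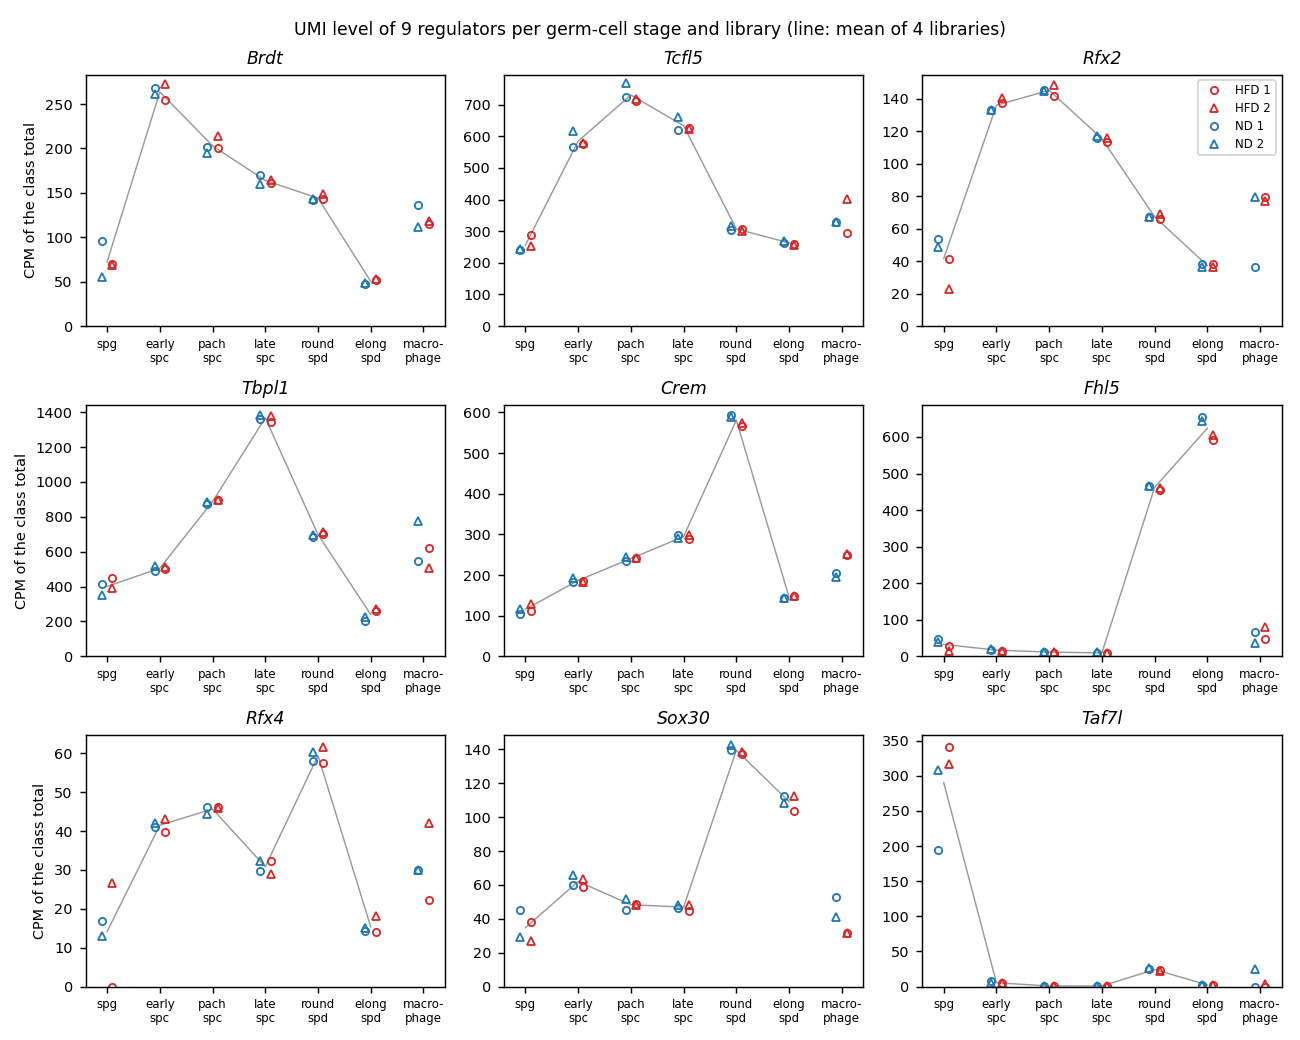
Level of each of the 9 regulators (CPM of all UMIs in the class) in 6 germ-cell stages and in macrophage-like cells, with 1 point per library (red HFD, blue ND; circles replicate 1, triangles replicate 2) and a grey line through the mean of the 4 libraries. Crem reaches 581 CPM in round spermatids, Fhl5 is near 0 until round spermatids, Tbpl1 reaches 1367 CPM in late spermatocytes, and Taf7l is high in spermatogonia and again present in round spermatids.

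The general-factor relatives had unlike patterns. Tbpl1 was highest in late spermatocytes, with 1346 and 1378 CPM in HFD and 1361 and 1384 CPM in ND. It was 888 CPM in pachytene spermatocytes, 699 CPM in round spermatids, 505 CPM in early spermatocytes and 239.6 CPM in elongating spermatids. Late spermatocytes held 42.5 Tbpl1 UMIs per cell, against 2.03 in macrophage-like cells, whose level was 612 CPM. The share of thinned cells with a UMI was 92.5% in late spermatocytes and 60.5% in macrophage-like cells (99.3% and 74.8% unthinned).

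Taf7l was highest in spermatogonia, with 341 and 317 CPM in HFD and 194 and 309 CPM in ND. That class had only 46 to 66 cells per library, and the ND 1 library was lowest. Pachytene and late spermatocytes held 0.713 and 0.766 CPM. Round spermatids held 24.2 CPM (range 22.4 to 25.8). The level in round spermatids was thus 31.5 times that in late spermatocytes, and the ranges of these stages did not overlap. Macrophage-like cells had 0 Taf7l UMIs in HFD 1 and ND 1, 1 in HFD 2 and 9 in ND 2, a mean of 7.03 CPM. Of thinned cells, 40.3% of spermatogonia, 4.88% of round spermatids, 0.0415% of late spermatocytes and 1.41% of macrophage-like cells had a UMI. The unthinned shares were 66.8%, 27.8%, 2.18% and 2.18%. Among early spermatocytes Taf7l was uneven: cluster 6.6 (111 cells) held 385 CPM, clusters 6.3 and 6.2 held 91.4 and 48.3 CPM, and the main cluster 5 (3219 cells) held 1.07 CPM. Cluster 6.6 also scored 1.40 for spermatogonia markers, and cluster 5 scored 0.61 for pachytene markers beside 1.10 for early ones. As background, genes on the X chromosome are silenced in pachytene spermatocytes.

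Brdt was highest in early spermatocytes, with 254 and 272 CPM in HFD and 268 and 261 CPM in ND, and 120.5 CPM in macrophage-like cells. It was lower at each later stage, with 203 CPM in pachytene spermatocytes, 164 CPM in late spermatocytes, 144 CPM in round spermatids and 50.5 CPM in elongating spermatids. Per cell, pachytene spermatocytes held 5.42 Brdt UMIs and late spermatocytes 5.09, against 4.16 in early spermatocytes. Among thinned cells a Brdt UMI was found in 42.3% of early spermatocytes and 18.7% of macrophage-like cells (88.5% and 24.6% unthinned). Tcfl5 was highest in pachytene spermatocytes, with 711 and 718 CPM in HFD and 725 and 769 CPM in ND. Late spermatocytes had 633 CPM, early spermatocytes 585 CPM, round spermatids 307 CPM and macrophage-like cells 338 CPM. The Tcfl5 share of thinned cells was 75.9% in pachytene spermatocytes and 37.9% in macrophage-like cells (99.6% and 51.9% unthinned).

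The RFX factors differed in timing. Rfx2 was at 145 CPM in pachytene spermatocytes (142 and 149 CPM in HFD, 145 and 145 CPM in ND) and at 136 CPM in early spermatocytes (133 to 141 CPM), so these neighbours differed by little more than their spread. Late spermatocytes had 115 CPM and round spermatids 67.3 CPM, against 68.1 CPM in macrophage-like cells. Rfx4 was highest in round spermatids, with 57.5 and 61.7 CPM in HFD and 58.0 and 60.4 CPM in ND. Pachytene spermatocytes had 45.7 CPM, late spermatocytes 30.8 CPM and elongating spermatids 15.4 CPM, against 31.1 CPM in macrophage-like cells (22.3 to 42.0 CPM), so the means of late spermatocytes and elongating spermatids were at or below that background. Per cell, pachytene spermatocytes held 1.22 Rfx4 UMIs and late spermatocytes 0.963, against 0.880 in round spermatids. Detection of Rfx4 in thinned cells was 11.3% in round spermatids and 6.81% in macrophage-like cells (52.9% and 8.64% unthinned). The Rfx2 share of thinned cells was 25.7% in pachytene spermatocytes and 9.70% in macrophage-like cells (95.1% and 13.8% unthinned).

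Sox30 was highest in round spermatids, with 137 and 138 CPM in HFD and 140 and 143 CPM in ND. Elongating spermatids had 109 CPM (104 to 112 CPM) and every earlier stage at most 62.0 CPM. Pachytene and late spermatocytes, with 48.3 and 46.8 CPM, did not differ beyond their spread. Macrophage-like cells held 39.4 CPM. Among thinned cells a Sox30 UMI was found in 24.1% of round spermatids and 5.75% of macrophage-like cells (76.6% and 9.83% unthinned).

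Within the spermatids the regulators were highest in different clusters. The 4 round clusters (14, 15, 16 and 21) and the 5 elongating clusters (2, 7, 8, 1 and 0) were each put in order of rising Prm1, a protamine of the condensing nucleus. The mean Prm1 level of round spermatids as a class was below that of macrophage-like cells. The part of background in the order of the round clusters was not tested. Crem held 612, 654, 598 and 454 CPM in the round clusters and 181, 230, 166, 106 and 128 CPM in the elongating ones. Fhl5 went from 119 CPM in cluster 14 through 404 and 652 CPM to 858 CPM in cluster 21. In the elongating order it was 41.4 CPM in cluster 2, 291 CPM in cluster 7, 1153 CPM in cluster 8, 548 CPM in cluster 1 and 187 CPM in cluster 0. Over all 9 clusters cluster 2 came between clusters 16 and 21, so Fhl5 did not rise evenly with Prm1. Clusters 2 and 7 were shallow, with medians of 2854 and 2335.5 UMIs per cell against 12891 in cluster 8, and the part of depth and free RNA in their levels was not tested. Sox30 reached 200.5 CPM in cluster 21 and 188 CPM in cluster 8. Rfx4 was highest in cluster 16 (75.6 CPM) and Taf7l in cluster 15 (36.5 CPM). Tbpl1 went the other way over the round clusters, from 1102 to 285 CPM. The highest Crem cluster thus came before the highest Fhl5 cluster in this order, and the ranges of the libraries at those 2 clusters did not overlap for either gene.

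**Figure D2:**
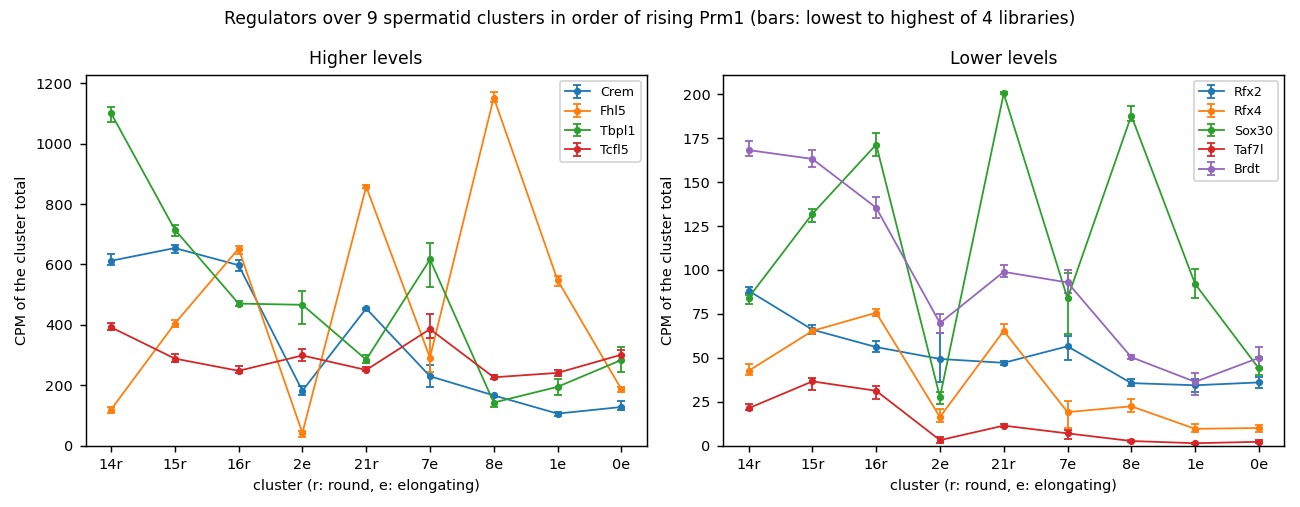
Mean CPM of the cluster total over the 4 libraries (points; bars run from the lowest to the highest library) in 9 spermatid clusters in order of rising Prm1, marked r for round and e for elongating. Crem is highest in cluster 15 at 654 CPM and Fhl5 in cluster 8 at 1153 CPM, while cluster 2 holds 41.4 CPM of Fhl5.

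Across 17 germ-cell clusters, the Pearson correlation of log2(CPM + 1) was 0.89 between Rfx2 and Tcfl5, 0.88 between Rfx2 and Brdt, 0.83 between Crem and Rfx4 and 0.73 between Fhl5 and Sox30. Fhl5 and Tcfl5 ran opposite, at -0.79. These values describe clusters that share their libraries and free RNA. The 3 genes most like each regulator were taken from 11390 genes with at least 20 CPM in some cluster. Most like Crem were Ccdc89 (0.97), Fam186a (0.97) and Zswim2 (0.95). Most like Fhl5 were Cypt12 (0.995), Samd4 (0.99) and 1700023F06Rik (0.99). For Tbpl1 they were Stamos (0.98), Adam1b (0.98) and Pfkp (0.98), and for Sox30 Kifap3 (0.91), Zfp37 (0.90) and Ndfip2 (0.90). Rfx2 was most like 4933433G15Rik (0.97), Tusc1 (0.96) and Hspa2 (0.96), a chaperone of spermatocytes. Rfx4 was most like Iqck (0.94), Sgca (0.93) and Zscan2 (0.91), Brdt like Erlec1 (0.96), Cenpp (0.96) and Boll (0.95), and Tcfl5 like Ndufaf3 (0.97), 6430531B16Rik (0.96) and Dis3l (0.95).

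Taf7l was most like Otud5 (0.98), Phka2 (0.97) and Usp26 (0.97), which are all on the X chromosome. Of the 100 genes most like Taf7l, 54 were on the X chromosome, which held 337 of the 11390 genes compared (2.96%). The same count was 12 for Fhl5 and at most 1 for each of the other 7 regulators.

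The other genes of these pathways were taken from lists of known partners and targets. Of 14 genes known to depend on CREM or TBPL1, 10 were highest in elongating and 2 in round spermatids. Prm1 went from 4515 CPM in round to 57359 CPM in elongating spermatids, and Smcp, a mitochondrial capsule protein, from 2152 to 5602 CPM. Ldhc, the germ-cell lactate dehydrogenase, was highest in pachytene spermatocytes with 10263 CPM. Of 12 early spermatid genes of the SOX30 class, 7 were highest in round spermatids, among them the acrosomal genes Acrv1 (527 CPM) and Spaca1 (788 CPM). The 20 cilium and flagellum genes of the RFX class were spread, with 6 highest in round spermatids, 5 in late, 4 in pachytene and 4 in early spermatocytes, and 1 in elongating spermatids. Much of the CREM and TBPL1 list and of the SOX30 list are also markers that named the stages, so their stage is no finding. In the first these are Prm1, Prm2, Tnp1, Tnp2, Odf1, Smcp, Gapdhs and Ldhc. In the second they are Acrv1, Spaca1, Izumo1, Catsper3, Catsper4, Tssk1 and Tssk2. The counts for these lists were thus largely fixed by the naming, as were the levels given as examples. Camk4 is in 2 of the lists.

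Among 24 partners and other regulators, 8 were highest in round spermatids and 9 in spermatogonia. Kif17, a motor that carries the FHL5 protein, had 109 CPM in round and 93.4 CPM in elongating spermatids, against 6.92 CPM in late spermatocytes. Sox5 had 412 CPM in round spermatids and 5.85 CPM in late spermatocytes. Gtf2a1l, the germ-cell relative of a TFIIA subunit, was highest in late spermatocytes at 385 CPM, as was Tbp at 121 CPM. Taf4b had 79.6 CPM in spermatogonia, 0.504 CPM in late spermatocytes and 11.4 CPM in round spermatids. The ubiquitous subunit Taf7 had 206 CPM in spermatogonia and was lower at each later stage, down to 7.22 CPM in elongating spermatids. Mybl1 was highest in early spermatocytes at 103 CPM, with 15.1 CPM in round spermatids.

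The diets were compared first over all cells of each library. In CPM scaled with TMM factors, Fhl5 was at 215 and 205 CPM in HFD and 268 and 260 CPM in ND, and it fell by 0.33 on the log2 scale (SE 0.040; edgeR quasi-likelihood test; adjusted p 3.91e-05 by Benjamini-Hochberg over all tested genes). Taf7l was at 9.91 and 9.26 CPM in HFD and 12.3 and 12.7 CPM in ND, and it fell by 0.39 (SE 0.058; edgeR adjusted p 0.000169). Both were lower in 2 of 2 HFD libraries, with no overlap between diets. Sox30 fell by 0.14 (SE 0.039; edgeR adjusted p 0.0109; 84.9 and 84.9 against 92.8 and 94.7 CPM). Crem fell by 0.12 (SE 0.037; edgeR adjusted p 0.0209), with 341 and 334 CPM in HFD and 366 and 368 CPM in ND.

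Tbpl1 and Rfx2, which were highest in spermatocytes, moved the other way. Tbpl1 rose by 0.12 on the log2 scale (SE 0.038; edgeR adjusted p 0.0216), with 815 and 811 CPM in HFD and 730.05 and 765 CPM in ND. Rfx2 rose by 0.12 (SE 0.041; edgeR adjusted p 0.0416; 96.0 and 101 against 90.4 and 91.5 CPM). Rfx4 (-0.01), Brdt (0.08) and Tcfl5 (0.08) did not pass the test.

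In all, 6 of 9 regulators were called in the whole testis, 2 higher and 4 lower, where 34.3% of 25470 tested genes were called (15.3% higher and 18.9% lower). The median log2 ratio of the 9 was -0.01, beside -0.02 over all tested genes. In 8 of 9 the libraries of the diets did not overlap, as in 67.4% of all genes. A sum over the whole testis cannot tell fewer cells of a stage from less RNA per cell. Round spermatids made up 19.6% and 19.6% of kept cells in HFD and 24.6% and 24.7% in ND. Late spermatocytes made up 4.61% and 5.39% in HFD and 3.26% and 3.46% in ND, and pachytene spermatocytes 6.12% and 7.41% against 4.87% and 5.06%. Elongating spermatids made up 14.7% and 14.9% in HFD and 16.5% and 15.5% in ND, and unnamed cells 42.4% and 38.7% against 36.2% and 36.2%. Round-spermatid markers were called lower in 12 of 12 cases, elongating-spermatid markers lower in 11 of 12, and late-spermatocyte markers higher in 7 of 11 and lower in 1. Pachytene markers were called higher in 8 of 10 cases, and early-spermatocyte markers higher in 4 and lower in 2 of 12. Of spermatogonia markers, the stage where Taf7l was highest, 4 of 10 were called lower and none higher (median log2 ratio -0.32). Most Taf7l UMIs were in round spermatids (4349), with 643 in unnamed cells and 354 in spermatogonia. Of Leydig markers 7 of 7 (median -0.78), of Sertoli markers 7 of 9 and of macrophage markers 5 of 8 were called lower. With every library given the same mix of clusters, limma on log2(CPM + 1) called 0 of 9 regulators, where it called 1.3% of all genes, and Fhl5 was at -0.03 and Taf7l at -0.06. The same test with each library's own mix called 6 of 9, where it called 34.6% of all genes, with Fhl5 at -0.33 and Taf7l at -0.36. Fhl5 and Taf7l were called in 12 of 13 alternatives, the fixed mix being the exception. Sox30 was called in 9 of the 13, and Crem, Rfx2 and Tbpl1 in 8 each. Among the 13 are fits without 1 library, which leave 1 library in a diet.

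Genes of the partner and target lists were also called in the whole testis, where 15.3% of all tested genes were called higher and 18.9% lower. Of the CREM and TBPL1 list, 10 of 14 fell and 2 rose (median log2 ratio -0.22, beside -0.02 for all genes). Camk4, a kinase that can phosphorylate CREM, fell by 0.42 (edgeR adjusted p 1.71e-05), Ace by 0.30 (edgeR adjusted p 0.000111) and Gapdhs by 0.26 (edgeR adjusted p 0.000207). Of the SOX30 list, 10 of 12 fell and 1 rose, and Catsper3, Izumo1 and Spaca1 fell by 0.41, 0.35 and 0.35 on the log2 scale. Of the RFX list, 8 of 20 rose and 3 fell. Its members Bbs4 and Dnah1 rose by 0.30 and 0.26, while Tekt2 fell by 0.27. Of the partners, 9 of 24 rose and 10 fell, with a median log2 ratio of 0.02, among them Mybl1 (0.37) and Foxj1 (-0.37), a factor of motile cilia.

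Within the meiotic stages none of the 9 regulators was called by edgeR. In early spermatocytes 0 of 9 were called, where 2.55% of 15513 tested genes were. In pachytene spermatocytes 0 of 9 were called, beside 1.07% of all genes, and in late spermatocytes 0 of 9, beside 0.219%. At an unadjusted edgeR p under 0.05 the counts were 1, 1 and 0 of 9 in these stages. Over all genes they were 2552 of 15513, 2129 of 15261 and 1489 of 14139. DESeq2 also called 0 of 9 in each, beside 0.251%, 0.367% and 0.0919% of all genes. In late spermatocytes Tbpl1 had 1354 and 1385 CPM in HFD and 1360.0 and 1379 CPM in ND, which put the log2 ratio at -0.0001 (SE 0.031). Tcfl5 in pachytene spermatocytes had 719.8 and 719 CPM in HFD and 724 and 763 CPM in ND, which put the ratio at -0.05 (SE 0.037). Brdt in early spermatocytes had 258 and 273 against 266 and 260.0 CPM, a ratio of 0.01 (SE 0.042). The libraries of the diets overlapped for Tbpl1 and Brdt in these stages.

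Low-level Fhl5 in early and pachytene spermatocytes was lower in both HFD libraries without passing the test. In early spermatocytes it was 14.9 and 15.8 CPM in HFD and 18.4 and 18.9 CPM in ND (log2 ratio -0.28, edgeR adjusted p 0.122), and in pachytene spermatocytes 10.5 and 10.9 against 12.9 and 12.5 CPM (-0.25, edgeR adjusted p 0.257). In late spermatocytes it was 8.77 and 8.83 against 9.32 and 10.6 CPM (-0.18, edgeR adjusted p 0.628), and its sign turned with cells thinned to at most 5000 UMIs (0.31, edgeR adjusted p 0.894). These levels lie below the macrophage-like background. Of spermatid genes in early spermatocytes, 6 of 14 of the CREM and TBPL1 list and 3 of 12 of the SOX30 list fell and none rose, where 2.55% of all genes were called in either direction. Among them Gapdhs fell by 0.29, Tnp2 by 0.25, Tnp1 by 0.24, Acrv1 by 0.45 and Tssk1 by 0.34. In pachytene spermatocytes Gapdhs fell by 0.37, with 1 of 14 and 1 of 12 genes of these lists called, beside 1.07% of all genes. The summed level of 12 round-spermatid markers in early spermatocytes was 206 and 202 CPM in HFD and 237 and 272 CPM in ND, and the part of free RNA in these differences was not tested.

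Taf7l in early spermatocytes was at 4.81 and 4.59 CPM in HFD and 7.74 and 4.49 CPM in ND (log2 ratio -0.37, edgeR adjusted p 0.361). Cluster 6.6, where its level was high, made up 1.29% and 1.76% of early spermatocytes in HFD and 5.28% and 2.60% in ND. Without ND 2 the ratio was -0.72 and passed the test (edgeR adjusted p 0.0136), with ND 1 as the only ND library. Without ND 1 the ratio was 0.07, so its direction rests on ND 1. With a fixed mix of clusters the ratio was 0.18 (limma adjusted p 0.631). That fit changed both the test and the mix, so the part of the mix cannot be told from it.

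**Figure D3:**
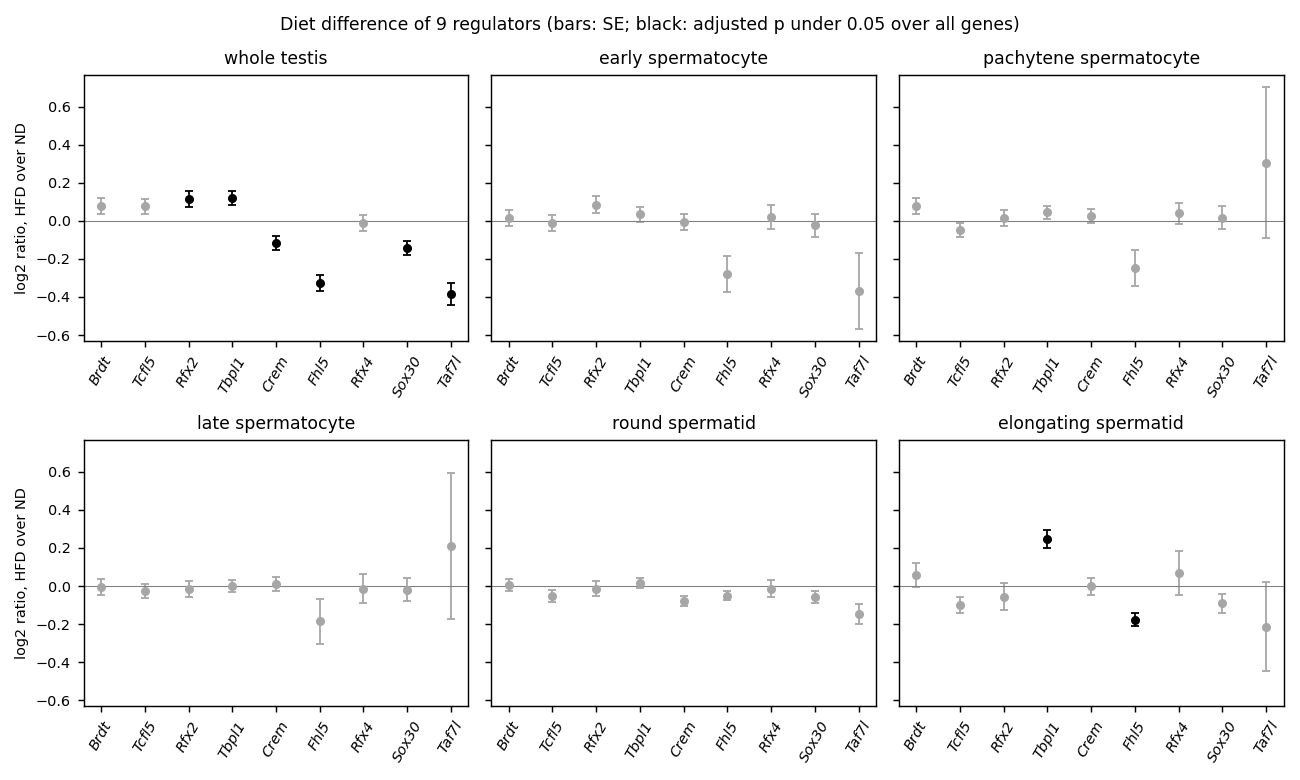
Log2 ratio of HFD over ND for the 9 regulators in the whole testis and in 5 stages (points; bars are 1 SE; black where the edgeR adjusted p over all tested genes was under 0.05). In the whole testis 6 of 9 are black, in elongating spermatids 2 of 9, and in the other 4 stages none. The wide bars of Taf7l in the spermatocytes go with levels of 0.6 to 7.7 CPM.

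In round spermatids, 0 of 9 regulators were called, where 0.686% of 19685 tested genes were. Crem had 563 and 567 CPM in HFD and 598 and 596 CPM in ND, which put the log2 ratio at -0.08 (SE 0.025; edgeR adjusted p 0.158; lower in 2 of 2 HFD libraries). Taf7l had 23.7 and 22.2 CPM in HFD and 24.8 and 26.1 CPM in ND, which put the ratio at -0.15 (SE 0.054; edgeR adjusted p 0.213). Both had an unadjusted p under 0.05 by edgeR (2 of 9), as had 3174 of the 19685 tested genes. DESeq2 called 0 of 9, beside 0.874% of all genes. Fhl5 (-0.05), Sox30 (-0.06), Tcfl5 (-0.05), Rfx4 (-0.01), Rfx2 (-0.01), Brdt (0.01) and Tbpl1 (0.02) were closer to 0. The libraries of the diets did not overlap for 5 of 9 regulators, against 47.3% of all genes. Without ND 1, Crem (-0.08, adjusted p 0.0398 by edgeR) and Tcfl5 (-0.09, adjusted p 0.0331 by edgeR) were called lower, when 1790 genes were called in place of 135. Cluster 14, the first round cluster, made up 38.3% and 39.0% of round spermatids in HFD and 34.6% and 34.3% in ND, and cluster 15, where Crem and Taf7l were highest, 21.0% and 20.5% against 24.7% and 25.0%. Cluster by cluster, Crem was lower in both HFD libraries than in both ND libraries in 4 of 4 round clusters. It was at 599 and 604 against 634 and 612 CPM in cluster 14, and at 637 and 650.2 against 666 and 665 CPM in cluster 15. In clusters 16 and 21 it was at 578 and 591 against 608 and 614 CPM and at 449 and 454 against 457 and 457 CPM. Taf7l was lower in this way in 2 of 4, clusters 16 and 21. These values are CPM of the plain cluster total, without TMM factors. The share of all genes apart in this way was not counted per cluster. The clusters share the same libraries, so they do not repeat the comparison. With the mix of clusters fixed, limma on log2(CPM + 1) put Crem at -0.05 (limma adjusted p 0.463) and Taf7l at -0.08 (limma adjusted p 0.521). The same test with each library's own mix put them at -0.06 and -0.12, and neither fit called any of the 9, where 0.879% and 1.23% of all genes were called. The median log2 ratio over all genes was 0.015 and 0.020 in these fits, beside 0.005 in edgeR.

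In round spermatids, where 0.686% of all genes were called, 1 gene of the partner and target lists was called. Rsph1, a radial spoke protein, rose by 0.14 on the log2 scale (SE 0.024; edgeR adjusted p 0.028), with 1140.3 and 1149 CPM in HFD and 1043 and 1030.5 CPM in ND. It was the 1 called gene of the 20 in the RFX list. Of the CREM and TBPL1 list 0 of 14, of the SOX30 list 0 of 12 and of the tested partners 0 of 22 were called by edgeR.

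In elongating spermatids, 2 of 9 regulators were called, where 8.87% of 15013 tested genes were (4.34% higher and 4.53% lower). Fhl5 had 584.5 and 589.98 CPM in HFD and 669 and 659 CPM in ND. It fell by 0.18 on the log2 scale (SE 0.035; edgeR adjusted p 0.00379; lower in 2 of 2 HFD libraries). Tbpl1 had 257 and 263 CPM in HFD and 209.5 and 229 CPM in ND, levels below the 612 CPM of macrophage-like and 718 CPM of fibroblast-like cells. It rose by 0.25 (SE 0.046; edgeR adjusted p 0.0026; higher in 2 of 2 HFD libraries). Neither gene's libraries overlapped between diets, as held for 6 of 9 regulators and 51.8% of all genes. Crem was at 148 and 145 CPM in HFD and 146 and 146 CPM in ND. Tcfl5 (-0.10, edgeR adjusted p 0.139), Sox30 (-0.09), Brdt (0.06), Rfx4 (0.07), Rfx2 (-0.06) and Taf7l (-0.21) did not pass.

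Both calls were looked at cluster by cluster. Cluster 8, where Fhl5 was highest, gave 34.7% and 36.6% of the UMIs of elongating spermatids in HFD and 40.2% and 38.6% in ND. It scored 1.27 for elongating and 0.81 for round spermatids. With 0 own markers among its top 10 genes, it was named through its depth, as were the round clusters 14, 15, 16 and 21. Within cluster 8 Fhl5 was at 1139 and 1144 CPM in HFD and 1172 and 1158 CPM in ND, and within cluster 1 at 527 and 544 against 562 and 561 CPM. In cluster 7 it was at 281 and 244 against 357 and 283 CPM, and in cluster 2 at 29.8 and 41.0 against 47.6 and 47.2 CPM. Within cluster 0 it was at 193 and 189 against 188 and 177 CPM. Fhl5 was lower in both HFD libraries than in both ND libraries in 4 of the 5 clusters and higher in both in cluster 0. With the mix of clusters fixed, the Fhl5 ratio was -0.04 (limma adjusted p 0.594), and by the same test with each library's own mix it was -0.12 (limma adjusted p 0.0276). These limma fits used CPM without TMM factors. Their median log2 ratio over all genes was 0.058 with the mix fixed and 0.051 with the mix as found, beside 0.004 in edgeR. Their ratios are thus not on the same scale as those of edgeR. Tbpl1 was higher in both HFD libraries than in both ND libraries in 4 of the 5 clusters. In cluster 1 it was at 214 and 222 CPM in HFD and 167 and 175 CPM in ND, and in cluster 0 at 306 and 325 against 245 and 258 CPM. In cluster 2, the exception, it was at 467 and 512 against 403 and 483 CPM. For both genes, the share of all genes apart in this way was not counted per cluster, and it was 51.8% in the class. The cluster values are CPM of the plain cluster total, while the 51.8% rests on TMM-scaled CPM. The TMM factors of the class were 1.013 and 1.028 in HFD and 0.983 and 0.977 in ND. Narrow gaps, as of Fhl5 in cluster 0 and Tbpl1 in cluster 8, thus depend on the scaling. The clusters share the same libraries, so they do not repeat the comparison. With the mix fixed Tbpl1 was still called (0.26, limma adjusted p 0.00274), as the 1 call among 9 regulators where 5.25% of all genes were called. By the same test with each library's own mix Tbpl1 was at 0.30 (limma adjusted p 9.89e-05). Of the 5 clusters, only 1 and 8 had a median depth above that of all kept cells. In these alone 0 of 9 regulators were called, beside 1.01% of all genes. Tbpl1 was then at 0.22 (edgeR adjusted p 0.0561) and Fhl5 at -0.11 (edgeR adjusted p 0.239).

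**Figure D4:**
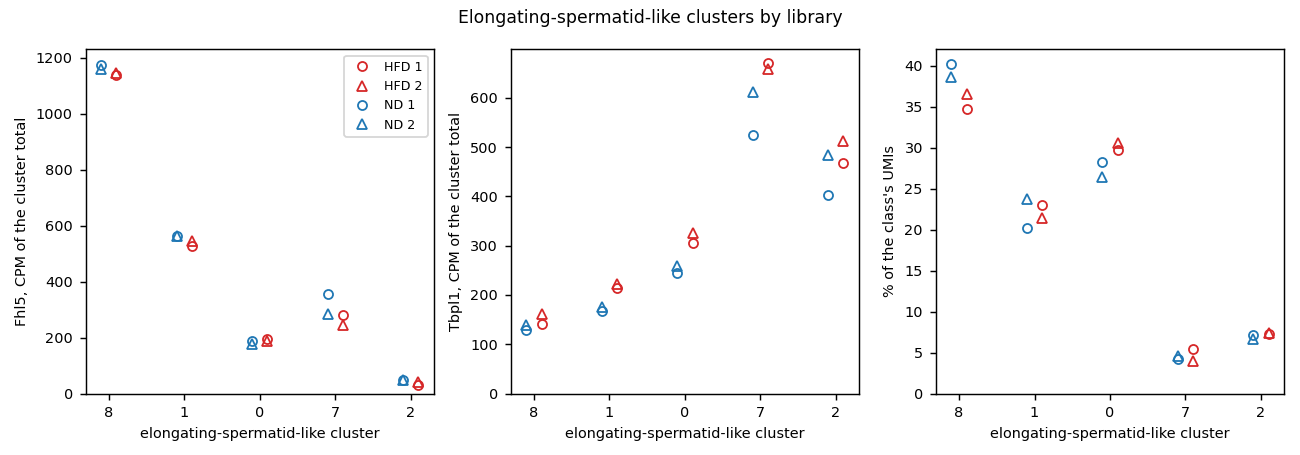
Fhl5 and Tbpl1 (CPM of the cluster total) and the share of the class's UMIs in the 5 clusters of elongating spermatids, 1 point per library (red HFD, blue ND; circles replicate 1, triangles replicate 2). Fhl5 of cluster 8 lies between 1139 and 1172 CPM in all libraries, while the HFD points of Tbpl1 lie above the ND points in clusters 8, 1, 0 and 7.

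Markers of other stages moved in the elongating spermatids as well. Late-spermatocyte markers, the stage where Tbpl1 was highest, rose in 8 of 11 cases, and their summed level was 619.99 and 607 CPM in HFD and 523 and 556 CPM in ND. The summed level of round-spermatid markers was 2726 and 2659.6 CPM in HFD and 2973 and 2945 CPM in ND, with 3 of 12 called lower. The part of these RNAs in the change of Tbpl1 and Fhl5 was not tested. Macrophage markers summed to 25.6 to 31.3 CPM, with 0 of 8 called.

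Part of the target lists was called in the elongating spermatids, where 4.34% of all tested genes were called higher and 4.53% lower. Of the CREM and TBPL1 list, 6 of 14 fell, 8 did not pass and none rose, with a median log2 ratio of -0.09 beside 0.004 over all genes. The markers that named this class moved alike, with 5 of 12 called lower, none higher and a median of -0.09. Prm1, Prm2, Tnp1, Tnp2, Odf1, Smcp and Gapdhs are in both sets, so the 2 falls are not separate results. Prm1 fell by 0.14 (SE 0.028; edgeR adjusted p 0.00517), with 57108 and 52393 CPM in HFD and 59602 and 60968 CPM in ND. Tnp2, a transition protein, fell by 0.13 and Ace by 0.14. Of the SOX30 list, 2 of 12 fell and 10 did not pass; those called were the kinases Tssk1 (by 0.19) and Tssk6 (by 0.15). Of the RFX list, 3 of 20 rose, none fell and the median log2 ratio was 0.07, and Ift20 (0.28) and Rsph1 (0.27) were among those that rose. Among 22 tested partners 3 rose and 1 fell, including Brd2 (0.23), a ubiquitous BET protein, and the nuclear receptor Nr6a1 (-0.18).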

How the data were processed

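The authors deposited a matrix of raw UMI counts, not normalised, for every library, in the 10x layout of software version 3.0.2 per the file headers. The genome build is mm10 per the submitters' processing notes, and the aligner and annotation are not given in the sources used here. All 55450 gene identifiers matched GENCODE M21. A dense table per library was not used here.

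Barcodes under 200 genes or over 20% mitochondrial UMIs were dropped (18, 13, 42 and 37 in HFD 1, HFD 2, ND 1 and ND 2), and Scrublet in scanpy 1.11.5 (expected rate 0.1) removed 421, 853, 780 and 756 doublets. The 4 libraries were clustered together (2000 variable genes without the 9 regulators, 30 principal components, 15 neighbours, Leiden resolution 1; igraph 0.11.9, scikit-learn 1.9.0, Python 3.11.15). That gave 26 clusters, of which 2 with high scores for more than 1 class were clustered again, for 35 in all. A cluster was named where its best marker list had a mean z-score of at least 1, at least 3 markers reached 5 CPM, a marker was among its top 10 genes by fold or its median depth was above that of all kept cells, and no other class had more markers there. The depth rule and the splits were set after the clusters were seen.

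UMI counts were summed per library over all kept cells or per class. The diets were compared by edgeR's quasi-likelihood test (version 4.0.16 in R 4.3.3, after filterByExpr and TMM), and p was adjusted by Benjamini-Hochberg over the genes of a compartment, with a threshold of 0.05. Ratios are HFD over ND, and the SE is the ratio's size divided by the square root of F. Spermatogonia were not compared, having under 50 cells in 2 libraries. Levels across stages use CPM of the plain class total, and the edgeR diet comparisons use TMM-scaled CPM. Diet values per cluster use CPM of the plain cluster total, and the limma fits use log2(CPM + 1), both without TMM factors. On simulated counts for round spermatids (19367 genes), 196 of 200 genes with a 2-fold change were recovered with 10 false calls. The changed genes had a mean above 50 UMIs and all genes the same dispersion, so genes of low counts were not covered. Alternatives used DESeq2 1.42.0, limma 3.58.1, no filter, a replicate block, doublets kept, a 10% mitochondrial limit, Leiden resolution 2, the regulators left among the variable genes, a fixed mix of clusters, cells thinned to at most 5000 UMIs, each library left out, and, chosen after seeing the data, only deep clusters and limma with the mix of clusters as found. All 9 regulators were named whatever their values, and of each other list up to 3 genes per compartment, ranked by size of change among those called, without overlap and at a mean of at least 20 CPM. The regulators and lists were chosen with earlier results of these data known.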

Additional observations from a re-analysis of the deposited data

How the results depend on the processing

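In the whole testis 6 of 9 regulators were called. By limma with a fixed mix of clusters 0 were called, beside 1.3% of all genes. With the mix as found (chosen after seeing the data) limma called 6, beside 34.6%. With cells thinned to at most 5000 UMIs 3 were called, beside 31.1%. In elongating spermatids the 2 calls were 1 by limma with a fixed mix (5.25% of all genes called) and 2 with the mix as found (9.74%). They were 1 with the regulators among the variable genes (4.91%) and 0 in clusters of high depth (1.01%). The 1 call was Tbpl1 both times. With the regulators among the variable genes Fhl5 was at -0.11 (edgeR adjusted p 0.0531). Of 0 calls in the other stages, late spermatocytes had 1 at a mitochondrial limit of 10%, where 9.17% of all genes were called. It was Fhl5 (-0.32), which was at 0.31 and not called with cells thinned to at most 5000 UMIs. Leaving out 1 library also moved the number called in early spermatocytes, both spermatid stages and the whole testis. A diet then rests on 1 library. No regulator's call changed sign. The stage of the highest level was the same for 9 of 9 regulators with doublets kept, for 8 with the regulators among the variable genes (Sox30 was then highest in elongating spermatids) and for 7 at Leiden resolution 2 and at the 10% limit, where no cluster was named pachytene and no pachytene comparison could be made. Between the alternatives, called genes numbered 330 to 10173 in the whole testis (8728 as reported), 39 to 1046 in early (395), 0 to 1210 in pachytene (163) and 10 to 1466 in late spermatocytes (31), and 1 to 1790 in round (135) and 135 to 1796 in elongating spermatids (1332). With the replicate number as a block, 6 of 9 regulators were called in the whole testis, 2 in elongating spermatids and 0 in the other 4 stages, and the called genes numbered 650 in early and 48 in late spermatocytes and 592 in round spermatids. Libraries with the same number deviated together by a correlation of 0.19 in the whole testis and -0.04 to 0.10 in the stages, and the labels do not say that the numbers pair the libraries. With 2 libraries per diet, the size of change that can be called was simulated for 2-fold changes alone, in genes of higher counts in round spermatids.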
